A study of Rattus norvegicus with 15 samples.

Results

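MicroRNAs (miRNAs) that mark other organs were measured in rat hearts as a check of non-cardiac signal and of the limit of detection. They are 9 of the 350 rat miRNAs on the array, each chosen by its exact name there, without star forms, and with all of its probes (19 in all). They are miRNAs known for epithelia (rno-miR-182, rno-miR-183, rno-miR-96, rno-miR-203 and rno-miR-205), pancreatic islets (rno-miR-375), liver (rno-miR-122) and the nervous system (rno-miR-124 and rno-miR-9), written without the prefix below. Of these, only miR-9 was detected on all 15 arrays, 2 were detected on some arrays, and 6 were detected on none.

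The series compared hearts of male Sprague-Dawley rats in 3 groups of 5 arrays. The GF group, named for glucose fluctuation, held diabetic rats that were starved for 24 h and injected with insulin at 0.5 IU/kg into the peritoneum. The DM group held rats made diabetic with 60 mg/kg streptozotocin, a toxin of the insulin-producing islet cells, injected into the tail vein. GF rats had the same injection, and a plasma glucose above 300 mg/dL is stated for the diabetic rats of both groups. The Veh group held control rats exposed to vehicle. Fasting and insulin cannot be told apart from the swing of glucose in the GF group. Whether every array held its own animal is not stated in the labels. A p-value here therefore covers only the spread between arrays, or between averages of arrays where arrays were averaged as given below. Part of that spread may be technical.

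A miRNA is a short RNA that pairs through its seed, bases 2 to 8, with messenger RNAs and lowers their output. The genes of miR-182, miR-96 and miR-183 lie in 1 cluster, transcribed together, and are best known in sensory epithelia such as retina and inner ear. miR-203 and miR-205 are miRNAs of skin and other stratified epithelia. In mouse, miR-375 controls insulin secretion and islet mass, and miR-122 makes up most of the miRNA of hepatocytes. miR-124 is abundant in neurons, and miR-9 is expressed in neural progenitors and brain.

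The mature sequences show which members could be mistaken for each other by their letters, since 3 of them belong to 1 cluster. They were taken from RefSeq (GRCr8) for 8 of the 9 members. The array's miR-203 was matched to the entry named miR-203a-3p and its miR-9 to the entry named miR-9a-5p, each through its gene and main arm. Capitals mark the seed.
miR-182: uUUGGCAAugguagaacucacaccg
miR-96: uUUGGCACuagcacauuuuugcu
miR-183: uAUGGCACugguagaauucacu
miR-203: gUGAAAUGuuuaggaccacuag
miR-205: uCCUUCAUuccaccggagucugu
miR-375: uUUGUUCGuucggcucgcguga
miR-122: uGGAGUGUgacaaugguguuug
miR-9: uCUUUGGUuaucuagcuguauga

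The cluster lies on the minus strand of chromosome 4, with miR-182 at chr4:59752249-59752273, miR-96 at chr4:59755901-59755923 and miR-183 at chr4:59756106-59756127. Its 3 hairpins span 3.91 kb. No pair of the 8 printed members share a whole seed. Within the cluster, miR-96 shares 6 of the 7 seed bases with miR-182 and 6 of 7 with miR-183, while miR-182 and miR-183 share 5 of 7. Over their whole length miR-182 and miR-183 match at 18 of 22 aligned positions, and miR-182 and miR-96 begin with the same 7 bases. miR-203 lies at chr6:137020756-137020777 on the plus strand and miR-205 at chr13:107564588-107564610 on the minus strand. miR-375 lies at chr9:83906591-83906612 on the minus strand and miR-122 at chr18:61028831-61028852 on the plus strand. The sequence of miR-9 is encoded at 3 loci, which the array cannot tell apart: chr1:142849415-142849437, chr2:15933307-15933329 and chr2:175974986-175975008, all on the plus strand.

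Between 166 and 190 miRNAs were detected per array. All 5 miRNAs of heart and striated muscle that were set beside the members were detected on 15 of 15 arrays. The total gene signal, the background-subtracted intensity of all probes of a miRNA added up, ran from 43870 to 81160 for miR-1, from 969 to 2426 for miR-133a, from 37426 to 73147 for miR-133b, from 958 to 3411 for miR-208 and from 2648 to 5052 for miR-499. The markers of the labelled tissue were thus present on every array. Within groups, 5 pairs of arrays lay closer together than the error stated for them by the scanner software, with a reduced chi-square of 0.252 to 0.565 over 156 miRNAs. The other pairs within groups gave 1.01 to 5.595, and pairs of arrays from different groups gave 1.17 to 7.88. The 5 pairs joined GF 1 with GF 5, GF 2 with GF 4, DM 2 with DM 4, DM 3 with DM 5, and Veh 1 with Veh 3. Each pair was averaged and counted as 1 sample, which left 3 GF, 3 DM and 4 Veh samples.

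The scanner software calls a miRNA detected where the signal of any of its probes exceeds 3 times that probe's stated error, a rule that held for 5250 of 5250 miRNA and array combinations checked. Over all 350 miRNAs, 2626 of 5250 calls were positive. The 9 members had 19 positive calls of 135 (14.1%), and 15 of those 19 were of miR-9. The other 8 members had 4 positive calls of 120. GF replicate 6 stood apart in this range of signal: its stated error for miR-375 was 5.47, against 2.45 to 4.38 on the other arrays, and the lowest value of each of the 6 undetected members was found on it.

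**Figure D1:**
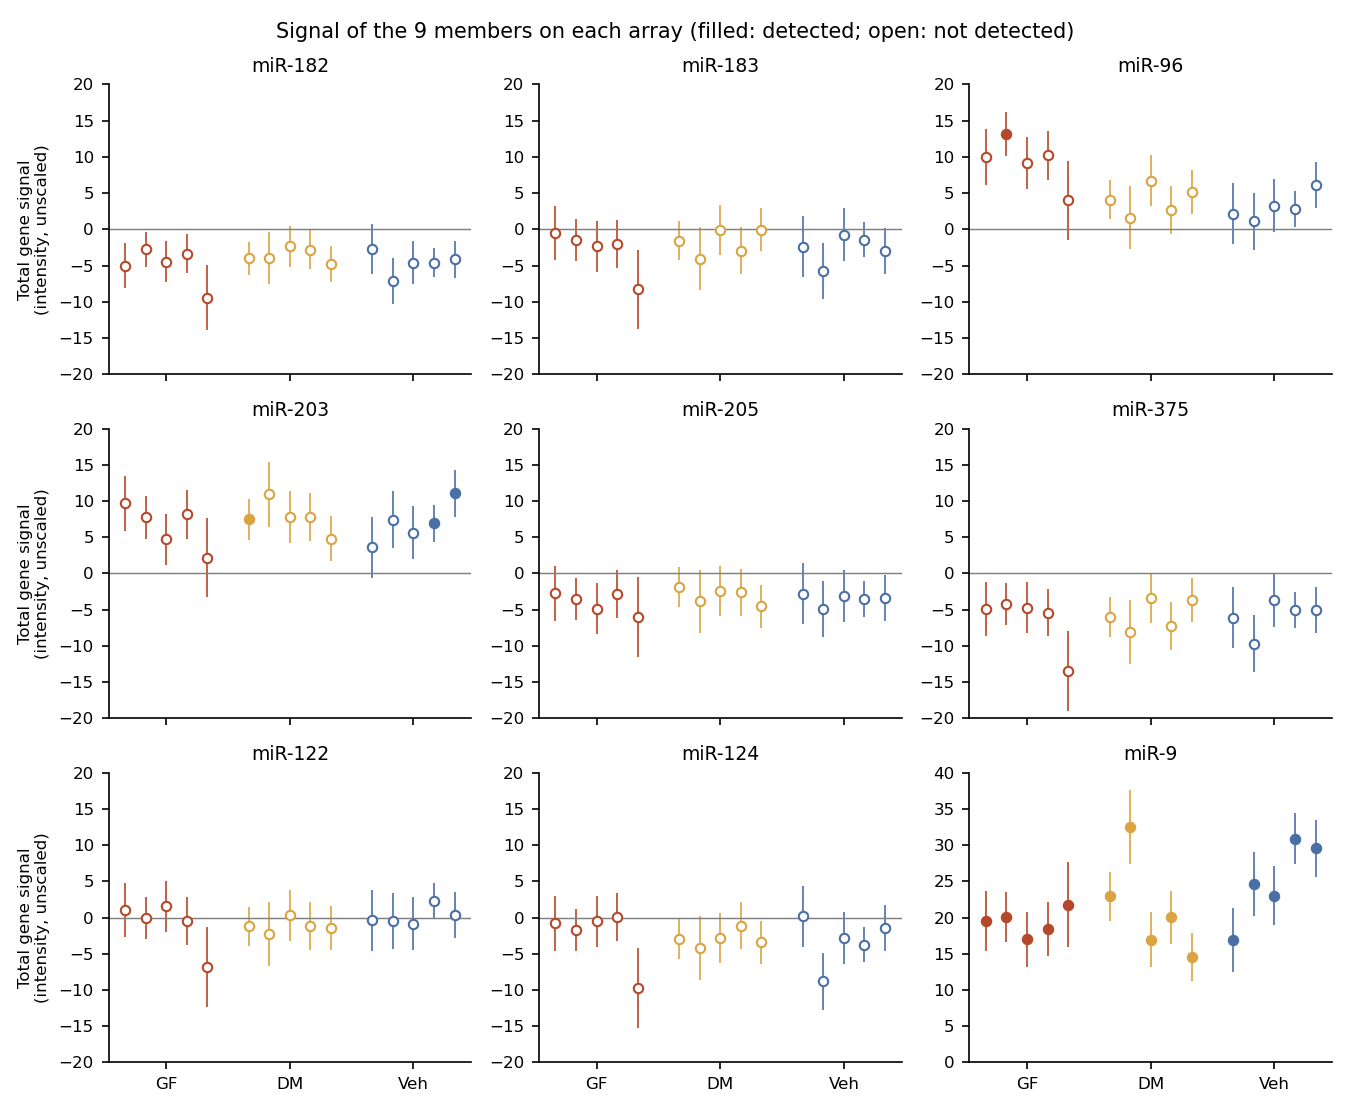
Total gene signal (y axis, intensity before scaling between arrays) of each of the 9 members on each of the 15 arrays, grouped as GF, DM and Veh, with the stated error as bars; filled points are detected and open points are not. The axis of miR-9 has its own range, 8 members lie between -13.5 and 13.1, and the last GF point in each panel is GF replicate 6.

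The liver and islet members were not detected on any array. The total gene signal of miR-122, the main miRNA of hepatocytes, was -6.82 at the lowest, -0.108 at the median and 1.57 at the highest over the GF arrays, against -2.29, -1.22 and 0.293 over the DM arrays and -0.851, -0.373 and 2.28 over the Veh arrays. Its values thus lay around zero in each group, and the highest was 0.928 of its stated error. For miR-375 the lowest, median and highest values were -13.5, -4.91 and -4.21 over the GF arrays, -8.10, -6.04 and -3.42 over the DM arrays, and -9.69, -5.03 and -3.73 over the Veh arrays. The miR-375 signal was below zero on 15 of 15 arrays, in animals with and without streptozotocin, so at this limit of detection no difference between the groups could be measured.

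Neural miR-124 was likewise undetected throughout. Its values were -9.73, -0.777 and 0.0822 (lowest, median and highest) over the GF arrays, -4.22, -2.96 and -1.14 over the DM arrays, and -8.81, -2.81 and 0.197 over the Veh arrays. In GF and in Veh the lowest value came from a single array, GF replicate 6 and Veh replicate 2. The miRNA was below zero on 13 of 15 arrays.

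Among the epithelial members, miR-182, miR-183 and miR-205 were below zero on 15 of 15 arrays. miR-182 ran from -9.42 to -2.76 over the GF arrays, from -4.79 to -2.36 over the DM arrays and from -7.09 to -2.72 over the Veh arrays. miR-183 ran from -8.30 to -0.517 over the GF arrays, from -4.03 to -0.0325 over the DM arrays and from -5.75 to -0.768 over the Veh arrays. For miR-205 the ranges were -6.03 to -2.76 in GF, -4.56 to -1.87 in DM and -4.89 to -2.81 in Veh. The 3 groups overlapped for each of these miRNAs.

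miR-203 had signal above zero on every array but reached the limit of detection on only 3. The total gene signal was 9.67, 7.73, 4.71, 8.17 and 2.18 on GF replicates 1, 2, 4, 5 and 6. The DM arrays gave 7.47, 10.9, 7.84, 7.79 and 4.83 for replicates 1 to 5, and the Veh arrays 3.59, 7.42, 5.64, 6.93 and 11.1. The groups overlapped throughout, with means of 5.77 ± 3.39 in GF (SD, n = 3), 7.72 ± 1.54 in DM (SD, n = 3) and 7.51 ± 2.67 in Veh (SD, n = 4). The 3 detected arrays were DM replicate 1 and Veh replicates 4 and 5, whose stated errors of 2.82, 2.52 and 3.28 were smaller than the 4.48 of DM replicate 2, where a signal of 10.9 was not detected. The detection calls of miR-203 thus moved with the stated error of the array as well as with its signal. Its 2 probes disagreed: one had a mean spot signal of 4.84 to 13.3 over the arrays and exceeded 3 stated errors on those 3 arrays, and the other ran from -1.43 to 5.20 and did so on none.

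miR-96, alone of the cluster, was above zero on all arrays, and it was detected on 1 of them, GF replicate 2. The GF arrays gave a total gene signal of 10.01, 13.1, 9.15, 10.2 and 3.99 for replicates 1, 2, 4, 5 and 6. The DM arrays gave 4.11, 1.63, 6.74, 2.65 and 5.12, and the Veh arrays 2.17, 1.09, 3.29, 2.78 and 6.16, each for replicates 1 to 5. In these unscaled values the GF arrays other than replicate 6 lay above every DM and Veh array, and GF replicate 6 lay among the DM and Veh arrays. Over distinct samples the means were 8.41 ± 3.87 in GF (SD, n = 3), 4.06 ± 1.90 in DM (SD, n = 3) and 3.19 ± 2.13 in Veh (SD, n = 4). Without GF replicate 6 the GF mean was 10.6 ± 0.730 (SD, n = 2). Both probes of miR-96 gave the same order of group medians: scaled spot signals of 6.92, 3.61 and 1.77 for one probe and 6.65, 4.19 and 3.84 for the other, in GF, DM and Veh. After scaling, the separation without GF replicate 6 held for the former probe only. With the latter, GF replicate 4 (5.49) lay below DM replicate 3 (5.69). On slide 1 the mean was 11.6 in GF and 1.63 in Veh (2 arrays each), and on slide 2 it was 7.78 in GF and 4.08 in Veh (3 arrays each). Each averaged pair had 1 array on either slide, so the slides are not independent comparisons. No spot of miR-96 was well above background on any array, so the miRNA was below the filter for testing and has no fold change or p-value.

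Epithelial miR-200c and miR-141, which are not among the 9, were read in the same samples. miR-200c had a total gene signal of 288, 306 and 305 in the GF samples (replicates 1 and 5, replicates 2 and 4, replicate 6), 64.2, 65.4 and 268 in the DM samples (replicate 1, replicates 2 and 4, replicates 3 and 5), and 26.5, 32.0, 32.5 and 84.7 in the Veh samples (replicates 1 and 3, replicate 2, replicate 4, replicate 5). miR-141 averaged 114 ± 7.19 in GF (SD, n = 3), 44.3 ± 41.0 in DM (SD, n = 3) and 13.9 ± 10.5 in Veh (SD, n = 4). Whether cells of epithelial origin took part in these signals was not tested, and in whole tissue fewer cells of a type and less RNA per cell cannot be told apart. Of the 5 epithelial members, miR-182, miR-183 and miR-205 were below zero and miR-96 and miR-203 above zero on 15 of 15 arrays.

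**Figure D2:**
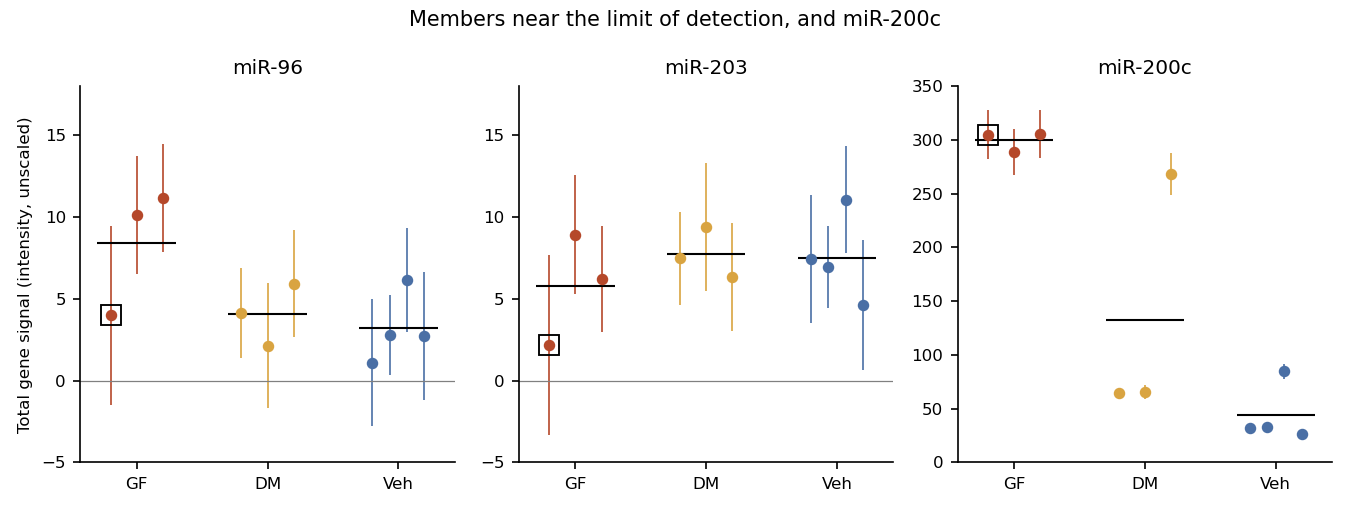
Total gene signal (y axis, intensity before scaling) of miR-96, miR-203 and miR-200c in the distinct samples of GF, DM and Veh; points are samples with their mean stated error, horizontal lines are group means, and squares mark GF replicate 6. The y axis of miR-200c has its own range.

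The pairs of near-identical arrays were also read for the 9 members. The pairs were found on miRNAs detected on all arrays, which include miR-9 and none of the other 8 members. Over 9 members and 5 pairs, 43 of the 45 differences were smaller than their stated error. Arrays outside the pairs were not set beside them, so this count cannot show that paired arrays repeated better than others. For miR-205, the extremes over all arrays were -6.03 (stated error 5.47) on GF replicate 6 and -1.87 (stated error 2.73) on DM replicate 1. For the 8 members other than miR-9 the largest difference within a pair was 3.98, between GF replicates 2 and 4 in miR-96. The 2 differences above the stated error were both of miR-9. It was 32.5 on DM replicate 2 and 20.1 on DM replicate 4, a difference of 12.4 or 1.97 stated errors, and 16.9 on Veh replicate 1 and 23.0 on Veh replicate 3.

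**Figure D3:**
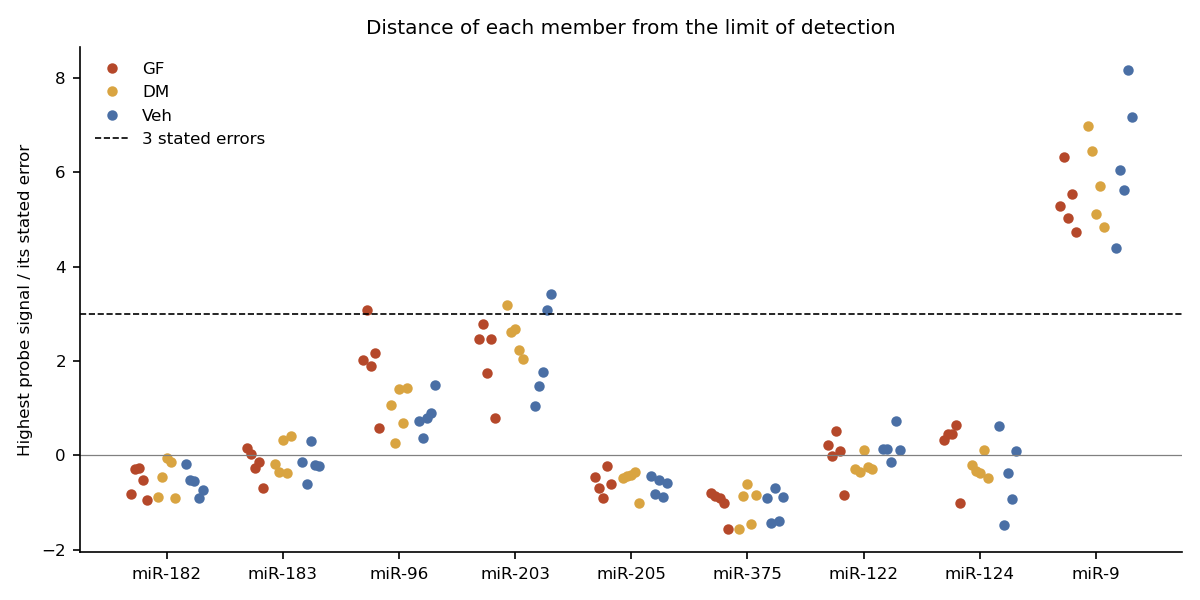
Signal of each member's best probe divided by the error stated for that probe (y axis, no unit) on each array of GF, DM and Veh; the dashed line at 3 is the limit above which the software calls a miRNA detected. miR-9 lies between 4.40 and 8.16, miR-96 and miR-203 reach the line on 1 and 3 arrays, and the other 6 members stay below 1.

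miR-9 was the only member that could be tested between groups. Its total gene signal was 19.5, 20.1, 17.0, 18.4 and 21.8 on GF replicates 1, 2, 4, 5 and 6. On DM replicates 1 to 5 it was 22.9, 32.5, 16.9, 20.1 and 14.5, and on Veh replicates 1 to 5 it was 16.9, 24.6, 23.0, 30.9 and 29.5. These unscaled values overlapped between all groups. None of the GF arrays, 1 of the DM arrays and 2 of the Veh arrays reached a raw value of 25, the minimum by which the authors filtered (required in 50% of a group's samples, per the file headers), and no member was in the authors' deposited table of filtered miRNAs.

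After scaling of the arrays the groups separated more. The scaled signal of the brighter miR-9 probe was 25.8, 17.5, 18.02, 26.7 and 24.2 on GF replicates 1, 2, 4, 5 and 6, against 29.3, 32.9, 32.6, 35.3 and 35.8 on Veh replicates 1 to 5. The DM arrays spanned both ranges, with 38.7, 36.6, 24.0, 29.3 and 21.0. All GF arrays were below all Veh arrays, a separation also seen in the lower direction for 19.4% of the 165 tested miRNAs over distinct samples. GF replicates 2 and 4 were under the floor of 19.8, the median over arrays of the lowest signal of a probe well above background, and were set to it. On the log2 scale miR-9 averaged 4.54 ± 0.21 in GF (SD, n = 3), 4.93 ± 0.40 in DM (SD, n = 3) and 5.07 ± 0.10 in Veh (SD, n = 4).

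The GF minus Veh difference of miR-9 was -0.54 on the log2 scale (SE 0.17, 95% interval -0.92 to -0.15), and it did not pass the threshold of 0.05 (limma, adjusted p = 0.0822 over 165 miRNAs). In this contrast 13 of 165 tested miRNAs (7.88%) passed. The median difference of all tested miRNAs was -0.05. The 9 members therefore gave 0 calls from 1 tested. The DM minus Veh difference was -0.14 (SE 0.17, interval -0.53 to 0.25, limma adjusted p = 0.760), and the GF minus DM difference was -0.39 (SE 0.19, interval -0.81 to 0.02, limma adjusted p = 0.418). In each of these contrasts limma called 0 of 165 miRNAs, while 14 (8.48%) and 18 (10.9%) had an unadjusted p under 0.05.

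Whether miR-9 passed the threshold changed with how arrays were counted and with 1 DM sample. With all 15 arrays as independent samples the GF minus Veh difference was -0.52 (limma adjusted p = 0.0176), in a fit that called 36.4% of miRNAs. With the 15 arrays fitted with each near-identical pair as a random block, the difference was -0.53 and did not pass (limma adjusted p = 0.0856). Without DM replicates 3 and 5, the DM sample with the lowest miR-9 (log2 level 4.49, against 5.27 and 5.03 in the others), GF minus Veh stayed at -0.54 with a smaller SE (0.11, against 0.17) and passed (limma adjusted p = 0.0188), GF minus DM was -0.62 and passed (limma adjusted p = 0.0444), and DM minus Veh turned to 0.08. Those 2 arrays also had the highest miR-200c of the DM group, given above, and whether this is linked to their miR-9 level was not tested.

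The miR-9 difference changed with the scaling. Without scaling between arrays, GF minus Veh was -0.27 and GF minus DM was -0.004, while the median of all 165 miRNAs moved to 0.25 and 0.35. Relative to that median, miR-9 was -0.51 without scaling and -0.48 with it in GF minus Veh. In GF minus DM it was -0.36 without scaling and -0.31 with it. Scaling shifts all miRNAs of an array alike on the log2 scale. Apart from the floor, these relative values therefore had to be close, and they do not test the choice of scaling. Within slide 1 the scaled log2 difference GF minus Veh was -0.46 (2 arrays each), and within slide 2 it was -0.56 (3 arrays each). The averaged pairs each had 1 array on slide 1 and 1 on slide 2, so slide 2 does not repeat slide 1 independently. GF minus DM was -0.52 on slide 1 and -0.09 on slide 2, and DM minus Veh was 0.06 on slide 1 and -0.48 on slide 2. Slide and scan date coincided.

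The dimmer probe of miR-9 was not well above background on any array by the rule that more than 0.5 of its spots be so. Its scaled signal ran from 1.15 to 4.64 over the GF arrays, from 3.58 to 8.85 over the DM arrays and from 4.60 to 10.1 over the Veh arrays. After scaling it had the same order of medians as the brighter probe, 3.28 in GF, 7.27 in DM and 9.14 in Veh. Before scaling the orders differed. The medians in GF, DM and Veh were 26.0, 25.1 and 32.8 for the brighter probe and 4.20, 5.60 and 8.44 for the dimmer one. The dimmer probe exceeded 3 stated errors on only 1 array.

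**Figure D4:**
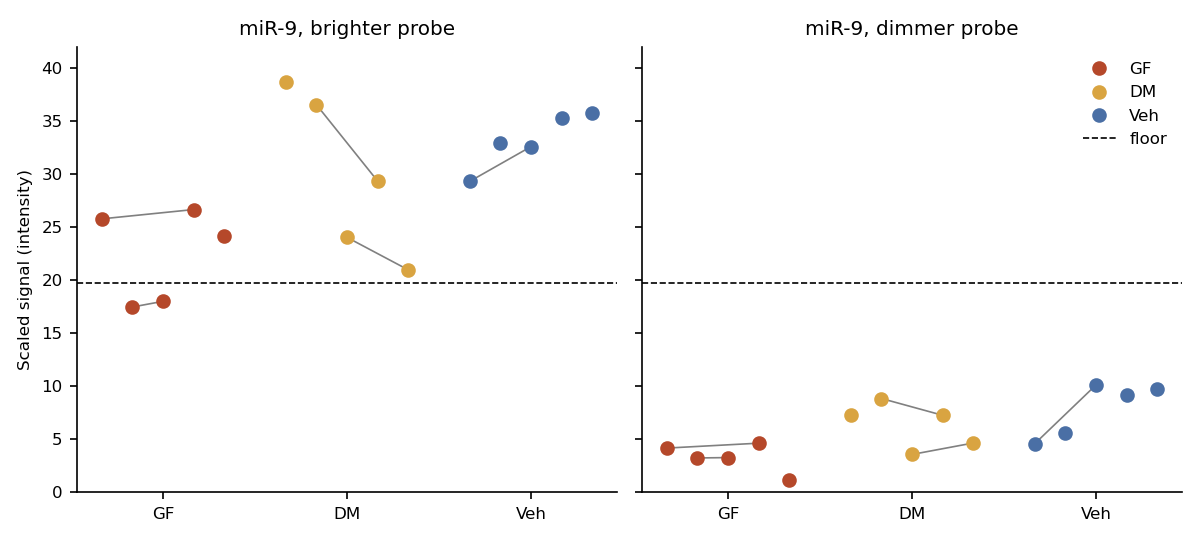
Scaled signal (y axis, intensity) of both miR-9 probes on each array of GF, DM and Veh; grey lines join arrays averaged as 1 sample, and the dashed line is the floor of 19.8. With the brighter probe all GF arrays lie below all Veh arrays and DM spans both, and the dimmer probe lies under the floor on all arrays.

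**Figure D5:**
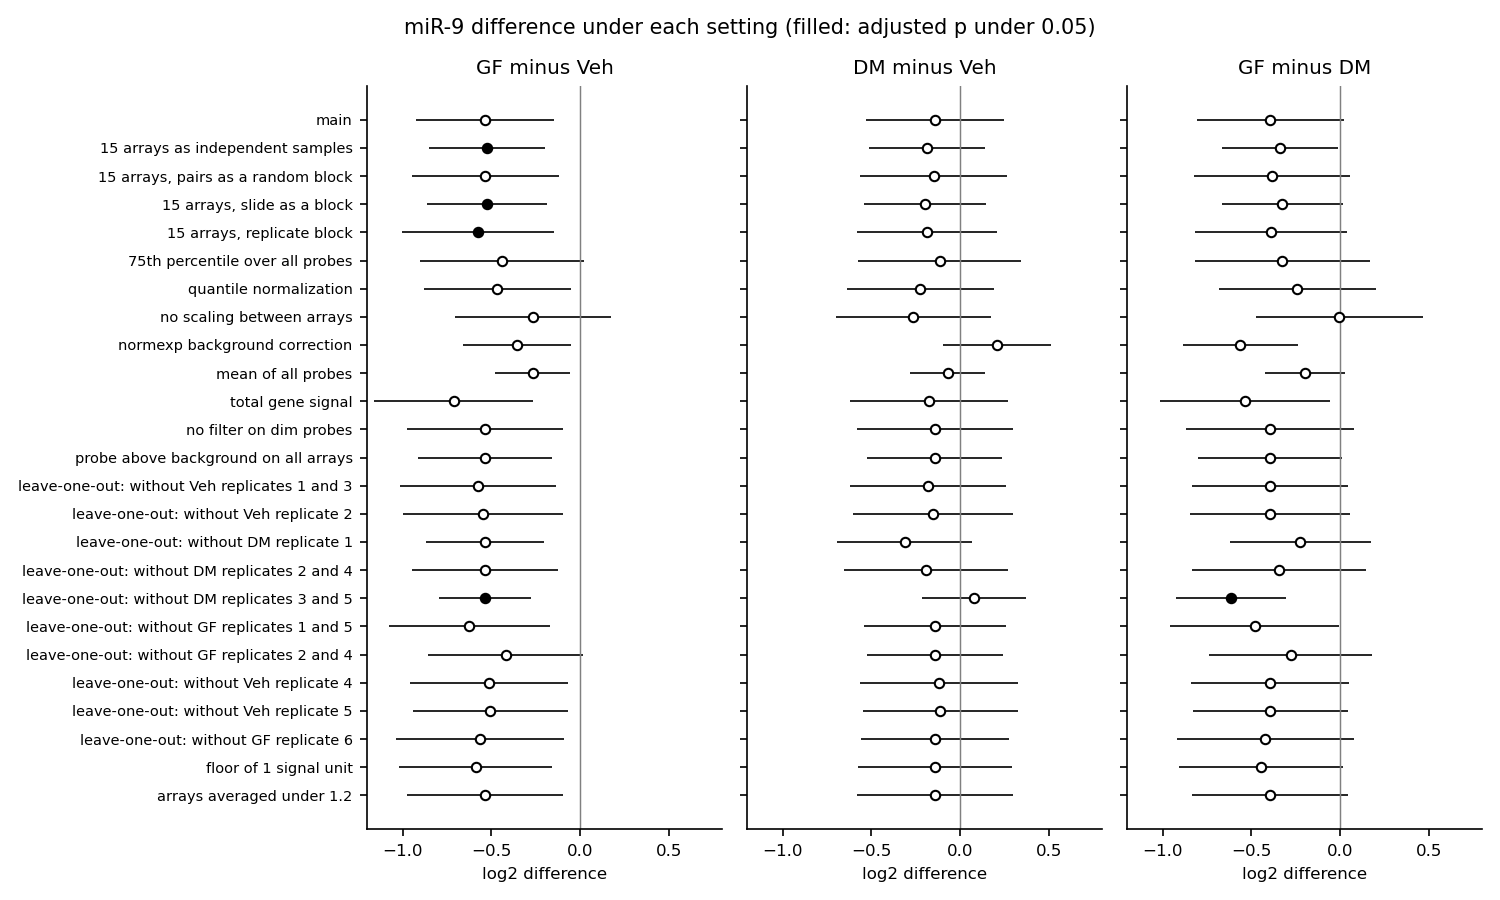
Log2 difference of miR-9 (x axis, with 95% intervals) in each contrast under the 25 settings (y axis); filled points have an adjusted p under 0.05. GF minus Veh lies between -0.71 and -0.27 with 4 of the 24 alternatives past the threshold, DM minus Veh lies on both sides of 0, and GF minus DM has 1 alternative past it.

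The tested miRNAs whose level followed miR-9 most closely over the 10 distinct samples were miR-142-5p (Pearson r = 0.95), miR-199a-5p (r = 0.94) and miR-199a-3p (r = 0.93), where the median r over the 164 other tested miRNAs was 0.24. These samples share the scaling of each array. The 3 were picked as the highest of the 164, so a high r and a like difference between groups follow from the choice. miR-142-5p, known from blood cells, had a log2 level of 6.09 ± 0.20 in GF (SD, n = 3) and 6.73 ± 0.09 in Veh (SD, n = 4), and its difference of -0.64 passed the threshold (limma adjusted p = 0.0367). In 6 alternatives GF minus Veh had 0 calls, so this call was lost as well: without Veh replicates 1 and 3, Veh replicate 2, Veh replicate 4 or GF replicates 2 and 4, with no filter on dim probes, and with arrays averaged under a chi-square of 1.2 (limma; 29 to 47 miRNAs at an unadjusted p under 0.05). With the authors' deposited log2 values GF minus Veh had 2 calls, 2 higher and 0 lower, so miR-142-5p was not called lower there either. The differences of miR-199a-5p and miR-199a-3p, of -0.48 and -0.39, did not pass (limma adjusted p = 0.0887 and 0.0733).

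A wider list of 16 measured miRNAs known for brain, liver and kidney, endocrine cells or epithelium was also read. Of these, 8 were detected on all arrays and 6 on none, and 10 were tested, against 156, 147 and 165 of all 350 miRNAs. None passed the threshold in any contrast (limma, lowest adjusted p = 0.184 in GF minus Veh, 0.546 in DM minus Veh and 0.418 in GF minus DM; 0 at an unadjusted p under 0.05 in each). Over all 165 tested miRNAs, 13, 0 and 0 passed in these contrasts, and 51 (30.9%), 14 (8.48%) and 18 (10.9%) had an unadjusted p under 0.05. Their median differences were -0.03 in GF minus Veh, 0.11 in DM minus Veh and -0.17 in GF minus DM, against -0.05, 0.03 and -0.08 over all tested miRNAs. Neural miR-132 was undetected while miR-212, encoded beside it, was detected on all 15 arrays with a total gene signal of 30.4 to 243.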

How the data were processed

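Rat heart miRNAs were measured on 15 one-colour arrays (100 ng of Cy3-labelled total RNA), 5 each of GF, DM and Veh. Agilent Feature Extraction 9.5.3.1 read them, per the file headers and the submitters' processing notes. The deposited array files hold the intensity of each spot, background-subtracted and not scaled, and a total gene signal, the intensity summed over a miRNA's probes. Flags of the software for detection are deposited beside them. Among the authors' tables, the deposited list of filtered miRNAs gives log2 values relative to the Veh mean, and the others give a p-value per miRNA.

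Processed signals were averaged over the spots of each probe. They were then scaled to each array's 75th percentile over 254 probes well above background on all arrays, and floored at 4.31 on the log2 scale. Each miRNA was represented by its brightest probe after flooring. Probes wholly under the floor tied there, and for miR-203 the choice fell on the dimmer one. The share of spots that had to be well above background for a probe to count was over 0.5, and a miRNA was tested when this held on at least 3 of 5 arrays of 1 group (165 of 350). Total gene signals are printed unscaled. Differences were fitted with limma 3.58.1 in R 4.3.3 on 10 distinct samples (two-sided tests, Benjamini-Hochberg over the 165, threshold 0.05). The fit was tested on simulated data with changes much larger than those of miR-9, so this check does not cover differences of that size. Members below the filter were given no test. The number of arrays limits the precision. Normexp was run on the median spot signal, the one in the files. Figures were drawn with matplotlib 3.10.9 and tables made with pandas 2.3.3 under Python 3.11.15.

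The members, the lists and the limit for averaging arrays were chosen with earlier results of these data known. Named are the 9 members, 5 heart markers, miR-200c and miR-141 beside the epithelial members, the 3 tested miRNAs most correlated with each tested member, and the wider tissue list, with values for those that passed; miR-132 and miR-212 were singled out after their values were seen.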

Additional observations from a re-analysis of the deposited data

Results flagged for a closer look

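In the Veh group, miR-375 had a total gene signal of -9.69 in replicate 2, against -4.92 to -5.03 in the other 3 samples, and this sample stood apart from them by 0.977 of the range of the group. The limit for flagging a group of 4 samples was a gap of 0.829 of the range. Chance alone gives a gap over this limit in about 1 of 20 groups, and 10 groups were checked. The same array also held the lowest Veh values of miR-182 (-7.09), miR-183 (-5.75), miR-205 (-4.89) and miR-124 (-8.81). All of these are below zero, so no level of the miRNAs is read from them.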

How the results depend on the processing

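Signal over background limits these results: 8 of 9 members lay under the limit of detection on nearly all arrays, and miR-9 lay close to the floor. The GF minus Veh count of 13 became 60 with 15 arrays as independent samples, 57 with slide as a block, 21 with the mean of all probes, 2 with the authors' deposited log2 values, and 0 with no filter on dim probes (limma; 46 at an unadjusted p under 0.05) or with arrays averaged under a chi-square of 1.2 (38 unadjusted), an alternative chosen after seeing the data. Leaving out 1 sample gave 0 to 28 calls: 0 without Veh replicates 1 and 3, Veh replicate 2, Veh replicate 4 or GF replicates 2 and 4 (29 to 47 unadjusted), 8 without GF replicate 6, 24 without DM replicates 3 and 5, and 28 without Veh replicate 5. The split of 5 higher and 8 lower became 16 and 2 without scaling, 7 and 3 with quantiles, and 15 and 1 with all probes in the 75th percentile. For DM minus Veh, the count of 0 became 3 with 15 arrays and 3 with slide as a block, and 0 to 2 without 1 sample. For GF minus DM it became 6 with 15 arrays, 5 with slide as a block, 1 without scaling, 1 with normexp, and 0 to 6 without 1 sample. For miR-9, GF minus Veh passed with 15 arrays (-0.52), with slide as a block (-0.52) and without DM replicates 3 and 5 (-0.54), and it was -0.62 to -0.42 without 1 sample. DM minus Veh turned to 0.21 with normexp and was -0.31 to 0.08 without 1 sample (0.0797 without DM replicates 3 and 5), and GF minus DM was -0.62 to -0.22. The sign of miR-9 in GF minus Veh was negative in all 24 alternatives, and in GF minus DM likewise. The alternatives reuse the same arrays, and some of them, such as the changes of filter, cannot change the estimate, so they are not independent checks. miR-9 has no value in the authors' deposited log2 table. The cause of these shifts was not tested. With the replicate block, the counts were 50, 4 and 1 for GF minus Veh, DM minus Veh and GF minus DM, and miR-9 in GF minus Veh was -0.58 and passed (limma adjusted p = 0.0450). Same-numbered arrays were not paired: correlations of their deviations ran from -0.53 to 0.47, and 6 of 13 were over 0.1. Members above background on at least 1 array numbered 1 in each group by the rule of the filter for testing, 2 in each by the software's gene call, which is what detected means elsewhere, and 1, 2 and 2 in GF, DM and Veh by any 1 spot well above background. The GF minus Veh difference of mean total gene signal was 5.22 for miR-96 and -1.73 for miR-203. Without GF replicate 6, also chosen after seeing the data, it was 7.44 for miR-96 and 0.061 for miR-203.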

Other observations

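The opposite arm of the miR-9 hairpin, miR-9*, was outside the choice of members. It was detected on 15 of 15 arrays, with a median total gene signal of 35.3 over the GF arrays, 29.8 over the DM arrays and 32.4 over the Veh arrays, and a range of 26.6 to 43.2 over all. Its log2 difference was -0.28 in GF minus Veh (limma adjusted p = 0.268), 0.002 in DM minus Veh (limma adjusted p = 0.991) and -0.28 in GF minus DM (limma adjusted p = 0.489), none past the threshold. All of its arrays exceeded the raw value of 25 that 3 of 15 arrays reached for miR-9. The opposite arm of miR-124, miR-124*, was below zero on 15 of 15 arrays, between -11.9 and -2.91.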
